A study of Mus musculus with 4 samples.

Results

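The oocyte is a source of paracrine factors as well as a target of them. GDF9 and BMP15 are secreted ligands of the TGF-beta family that the oocyte sends to the surrounding granulosa and cumulus cells, where they act through receptor serine/threonine kinases and Smad proteins. BMP6 is a further ligand of that family, and FGF8 is a fibroblast growth factor that signals through receptor tyrosine kinases and is known to cooperate with BMP15 in the control of cumulus cell metabolism. KIT is the receptor tyrosine kinase on the oocyte surface that receives Kit ligand (*Kitl*) from granulosa cells. The mRNAs of these 5 genes, *Gdf9*, *Bmp15*, *Bmp6*, *Fgf8* and *Kit*, were taken by symbol from a table of 21957 genes and were followed in 4 libraries. All 5 were measured in every library, and none was chosen by a threshold on its values.

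Oocytes came from Hybrid B6D2F1 (C57BL/6 x DBA) females of 6 to 8 weeks that had received pregnant mare serum gonadotropin, and were freed of cumulus cells with hyaluronidase. The GV group holds germinal vesicle oocytes at 0 h of culture, and the MII group holds oocytes after 12 h in M16 medium without the drug, of which, by the methods, those with an extruded polar body were taken. TubA-10 and TubA-20 are oocytes after 12 h with 10 or 20 μM tubastatin A (TubA), a small molecule made to inhibit the cytoplasmic deacetylase HDAC6. These doses come from the sample titles, which are followed here although the labels' treatment field has 20 μM where the title has 10 μM and 11 μM where the title has 20 μM. No such choice by stage is stated for the TubA oocytes, so the drug and the stage of the collected oocytes cannot be told apart in comparisons of TubA with MII. The MII sample is titled as an embryo, while the methods describe in vitro matured oocytes. Each library was made from pooled oocytes, the RNA was selected with oligo(dT), and an FPKM (sequenced fragments divided by transcript length and by all mapped fragments of the library) is therefore a length-corrected share of the captured poly(A) RNA. There was 1 library per condition, so no spread between replicates exists to judge a difference by, and no p-value is given. A change is the log2 ratio of FPKM + 1, and 2-fold (1 on the log2 scale) is used as a threshold of size only.

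The 10 oocyte markers were above 0 in all 4 libraries and summed to between 11444 and 14185 FPKM, of which *Dppa3* alone made up 5806 to 8610. Beneath that sum several markers were at their lowest with the high dose, the zona pellucida gene *Zp3* at 973 FPKM beside 2454 at the GV stage, *Zp2* at 293 beside 753, *Zp1* at 429 beside 910, *Padi6* at 350 beside 833 and *Figla* at 12.4 beside 90.5. *Mos* was at its highest there, at 1041 FPKM beside 635. The 17 cumulus and granulosa markers summed to between 22.8 and 28.2 FPKM, with 3 of 17 at or above 1 FPKM in GV, MII and TubA-10 and 5 of 17 in TubA-20. *Nr5a2* (9.12 to 11.5 FPKM) and *Cyp19a1* (6.14 to 10.3) carried most of that sum, and *Inha* was at 7.50 FPKM in GV and below 1 in the other libraries. *Ptx3* and *Tnfaip6* were at 0 in GV and highest with the high dose, at 1.19 and 1.57 FPKM. *Foxl2* was listed at 0 in all 4 libraries, *Amh* in 3 of them, and *Fshr* in both TubA libraries. The part of these markers in the results was not tested. Blood markers summed to between 1.64 and 2.26 FPKM, with the 4 hemoglobin genes at 0. From the steps between low FPKM values, MII and TubA-10 were estimated at 1.64 and 1.68 times the depth of GV, and TubA-20 at 0.893 times. These estimates rest on 77, 92 and 219 genes within 0.03 log2 of the step. They are not totals of sequenced reads, which can order the libraries otherwise. The 9193 genes that reached 1 FPKM everywhere had a median log2 change of 0.13 (MII), 0.14 (TubA-10) and 0.19 (TubA-20) relative to GV, and changes against GV are to be read relative to these shifts.

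The oocyte makes little new RNA once meiosis resumes, and the translation of its stored mRNAs is known to be tied to sequence elements near their 3′ ends. The hexamer AATAAA (or its variant ATTAAA) is the polyadenylation signal, and TTTTAT and TTTTAAT are forms of the cytoplasmic polyadenylation element, which recruits the factors that lengthen the poly(A) tail during maturation. The last 100 bases of 1 transcript per gene (GENCODE, assembly GRCm38) were searched on the sense strand for these 4 motifs, and windows of 30 bases are shown because the tail that oligo(dT) captures is added at these ends. Capitals mark the motifs, and each window is written 5′ to 3′ on the strand of the gene. They lie at chr11:53437862-53437891 (+ strand) for *Gdf9*, chrX:6314117-6314146 (- strand) for *Bmp15*, chr13:38500212-38500241 (+ strand) for *Bmp6* and chr5:75656684-75656713 (+ strand) for *Kit*, all within the 3′ UTR.
*Gdf9*: gtggTTTTATgtgacggaagAATAAActgt
*Bmp15*: ttaatcttaaagAATAAAttttcatttatg
*Bmp6*: atttattgtctaTTTTATatccattttgct
*Kit*: ctgaagaattctAATAAAaatgtaaatata

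*Gdf9* was the member with both kinds of motif in this stretch, with TTTTAT starting 39 bases and AATAAA 23 bases from the annotated end. *Bmp15* and *Kit* held AATAAA, starting 28 and 27 bases from the end, without TTTTAT or TTTTAAT in the last 100 bases. The *Kit* 3′ UTR held TTTTAT further upstream, at 145 and 291 bases from the end. *Bmp6* held TTTTAT at 79 bases and had its ATTAAA outside the stretch, at 154 bases. The letters of the 4 motifs were not found in the last 100 bases of *Fgf8*, whose 3′ UTR in this model is 192 bases long. Among 19152 transcripts searched the same way, 64.8% held AATAAA, 20.4% ATTAAA, 13.9% TTTTAT and 5.07% TTTTAAT, and 17.7% held none of the 4. A polyadenylation signal together with TTTTAT, as in *Gdf9*, was present in 11.2%. A match of letters is a description of the annotated end and not a measured element.

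**Figure D1:**
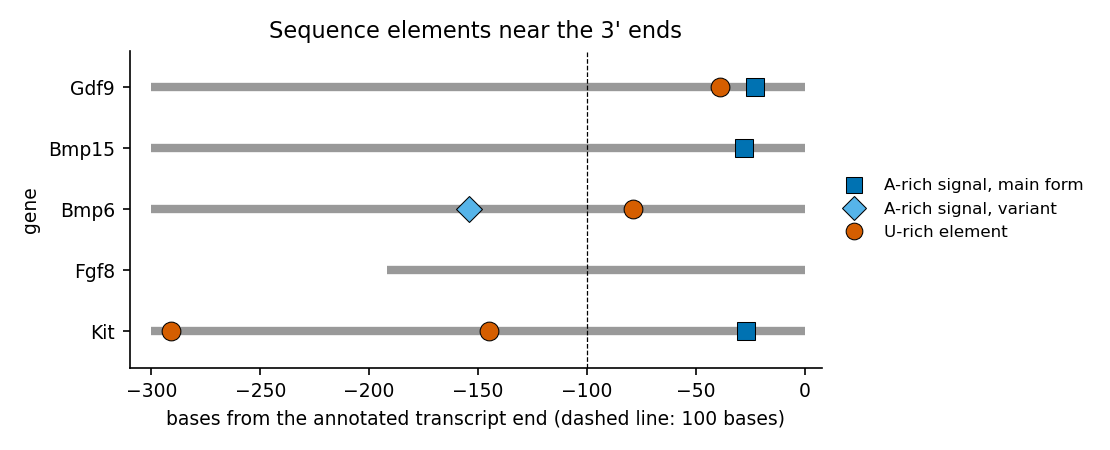
Positions of the searched motifs in the last 300 bases, or in the whole 3′ UTR where shorter, of the annotated transcript of each gene. The x axis gives the distance of the first base of a motif from the transcript end in bases, symbols stand for the kind of motif, and grey bars for the transcript; *Fgf8* has no symbol, and *Gdf9* has both kinds within 100 bases.

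*Gdf9* was the most abundant of the 5 mRNAs in every library and was highest at the high dose. The gene (ENSMUSG00000018238.6) lies on chromosome 11 at 53431023 to 53437904 on the + strand of GRCm38, and its transcript model has 2 exons and 1793 bases, of which 1326 are coding. GV oocytes had 1774 FPKM, MII oocytes 2928, TubA-10 oocytes 2275 and TubA-20 oocytes 3822. Its rank among the 21957 genes was 30 at the GV stage, 8 at MII, 20 with the low dose and 8 with the high dose. Relative to GV, the log2 change of 0.72 at MII and of 0.36 with the low dose stayed within 2-fold, and that of 1.11 with the high dose was past it. That value was 0.92, under 2-fold, when the median change of expressed genes was set to 0. Against MII, *Gdf9* was 0.36 lower in TubA-10 (log2 change -0.36) and 0.38 higher in TubA-20, so the treated libraries lay on either side of the untreated one. TubA-20 exceeded TubA-10 by 0.75 on the log2 scale, a position above 91.4% of the 5806 genes that reached 10 FPKM in either library.

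*Bmp15*, the closest relative of *Gdf9* in the oocyte, was higher in all 3 cultured libraries than in GV. The gene (ENSMUSG00000023279.7) is X-linked, at 6314107 to 6320721 on the - strand, and its 2 exons give a transcript of 3060 bases with 1179 coding bases and a 3′ UTR of 1523. Its level went from 460 FPKM at the GV stage to 972 at MII, the highest value, and to 744 and 816 with the low and the high dose. Relative to GV, the log2 change was past 2-fold at MII, at 1.08, and within it under both doses, at 0.69 and 0.83. The MII value was 0.95 with the median change of expressed genes set to 0. Both treated libraries were below MII, by log2 changes of -0.39 and -0.25, and they differed from each other by 0.13. That last difference was -0.06 when the libraries were scaled to equal *Gapdh*, so no order of the doses can be read for *Bmp15*. In MII against GV, *Bmp15* lay above 93.7% of 6156 genes, and in TubA-20 against GV above 68.1% of 6283.

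The ratio of *Gdf9* to *Bmp15* within a library does not depend on the scaling between libraries. GV oocytes had a ratio of 3.86, MII oocytes 3.01, TubA-10 oocytes 3.06 and TubA-20 oocytes 4.68. MII and TubA-10 had nearly the same ratio, with GV above them and TubA-20 highest. The proteins of these genes can form homodimers and a heterodimer, and the ratio given here is of mRNA per transcript length only.

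*Bmp6* was the least abundant member and was highest in GV. The gene (ENSMUSG00000039004.5) spans 38345107 to 38500302 on the + strand of chromosome 13, and its 7 exons make a transcript of 3593 bases with 1533 coding. It overlaps *Txndc5* by 224 bases and the antisense gene 4930579J19Rik by 7657 bases, both on the opposite strand, and the counting was strand-specific according to the methods. *Bmp6* measured 18.5 FPKM at the GV stage, 10.1 at MII, 12.8 with the low dose and 10.1 with the high dose. The values of MII and TubA-20 were nearly equal, with a log2 change between them of -0.0043, and TubA-10 lay between them and GV. The log2 changes relative to GV were -0.81 (MII), -0.50 (TubA-10) and -0.81 (TubA-20), all within 2-fold, the last one reaching -1.002 with the median change of expressed genes set to 0. *Bmp6* was thus lower where *Gdf9* and *Bmp15* were higher, and the *Gdf9* to *Bmp6* ratio went from 95.9 at the GV stage to 289 at MII, 178 with the low dose and 378 with the high dose.

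*Fgf8* differed most among the libraries. The gene (ENSMUSG00000025219.13) lies on chromosome 19 at 45736798 to 45742915 on the - strand, with 6 exons and a transcript of 1117 bases, 735 of them coding. Its level was 546 FPKM at the GV stage, 52.9 at MII, 66.3 with the low dose and 17.8 with the high dose, so GV was the high library and TubA-20 the low one. The GV level was 10.3 times that of MII, 8.24 times that of TubA-10 and 30.6 times that of TubA-20. In GV the *Fgf8* level was above that of *Bmp15*, with a ratio of 1.19, and in MII and TubA-20 the ratio was 0.0544 and 0.0218. Fewer cells carrying the transcript and less transcript per cell cannot be told apart in pooled oocytes. Neither can be told apart from a shorter poly(A) tail that oligo(dT) captures less, and tail length was not measured.

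The change of *Fgf8* against GV was -3.34 on the log2 scale in MII, the largest fall of the 6156 genes that reached 10 FPKM in either library. In TubA-10 it was -3.02, the 4th largest of 6035, and in TubA-20 -4.86, the 2nd largest of 6283. These ranks rest on 1 FPKM added and on the 10 FPKM limit. In MII, *Fcf1* was nearly level with *Fgf8*, at 84.4 FPKM beside 865 in GV. Between the cultured libraries, *Fgf8* was 0.32 higher in TubA-10 than in MII. It was lower in TubA-20, by -1.52 against MII (64th of 5620 genes from the largest fall) and by -1.84 against TubA-10 (156th of 5806). The MII level was 2.97 times and the TubA-10 level 3.72 times that of TubA-20. These calls at 2-fold held under all scalings and pseudocounts tried. The filters could not change them, since *Fgf8* lay above the filter levels in every library.

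*Kit* was the steadiest of the 5 mRNAs. The gene (ENSMUSG00000005672.12) covers 75574916 to 75656722 on the + strand of chromosome 5 and has 21 exons, a transcript of 5214 bases, a coding part of 2940 and a 3′ UTR of 2177. Its level was 34.1 FPKM at the GV stage, 43.7 at MII, 45.7 with the low dose and 40.8 with the high dose, and its highest value was 1.34 times its lowest. The log2 changes relative to GV were 0.35 (MII), 0.41 (TubA-10) and 0.25 (TubA-20), all within 2-fold. The 3 cultured libraries differed among themselves by less, with changes from MII of 0.06 under the low and -0.10 under the high dose, and -0.16 between the doses. *Fgf8* exceeded *Kit* 16.0 times in GV, 1.21 times in MII and 1.45 times in TubA-10, and was 0.437 times *Kit* in TubA-20.

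**Figure D2:**
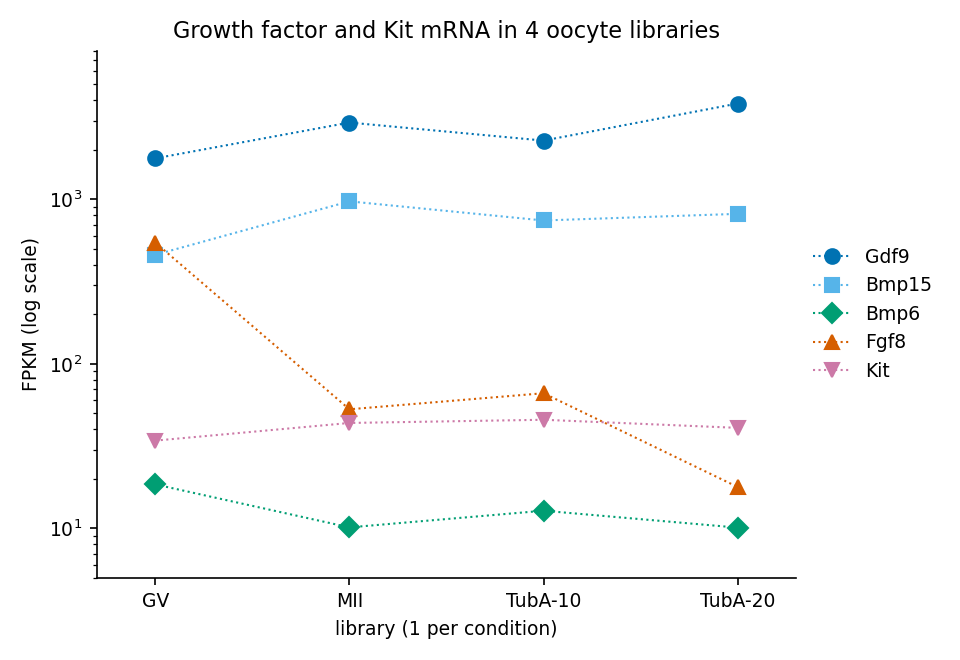
FPKM of the 5 genes (y axis, log scale) in the 4 libraries (x axis), with 1 point per library and dotted lines only to guide the eye. *Fgf8* goes from 546 FPKM in GV to 17.8 in TubA-20 and crosses *Kit*, while *Kit* stays between 34.1 and 45.7.

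Of the 5 genes, 1 was higher (*Bmp15*) and 1 lower (*Fgf8*) past 2-fold in MII against GV, where 3.05% of all 21957 genes were higher and 8.34% lower. In TubA-10 against GV, 0 were higher and 1 was lower (*Fgf8*), beside 0.742% and 5.6% of all genes. In TubA-20 against GV, 1 was higher (*Gdf9*) and 1 lower (*Fgf8*), beside 7.61% and 11.7%. These 3 comparisons share the GV library. In TubA-10 against MII none of the 5 passed 2-fold, with 0.515% of all genes higher and 0.128% lower. In TubA-20 against MII, 0 were higher and 1 was lower (*Fgf8*), beside 0.328% and 2.44%, and in TubA-20 against TubA-10 again 0 and 1 (*Fgf8*), beside 0.66% and 5.52%. The division of all calls into higher and lower depends on the scaling between libraries. In MII against GV, 26.7% of the calls were higher as deposited, 14% with the median change of expressed genes set to 0 and 51.2% with equal *Gapdh*. In TubA-10 against GV these shares were 11.7%, 4.1% and 46.4%, and in TubA-20 against GV 39.4%, 23.7% and 44.2%, with 49.5% for equal upper quartiles. In TubA-20 against TubA-10, 10.7% were higher as deposited, 3.32% with equal *Gapdh*, 6.43% with equal FPKM sums and 24% with equal upper quartiles. With 5 genes, a count of 1 is all that separates most of these shares from the background, and nothing is read from them for the members as a group. The background includes genes below 1 FPKM in both libraries, which cannot pass 2-fold with 1 FPKM added.

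**Figure D3:**
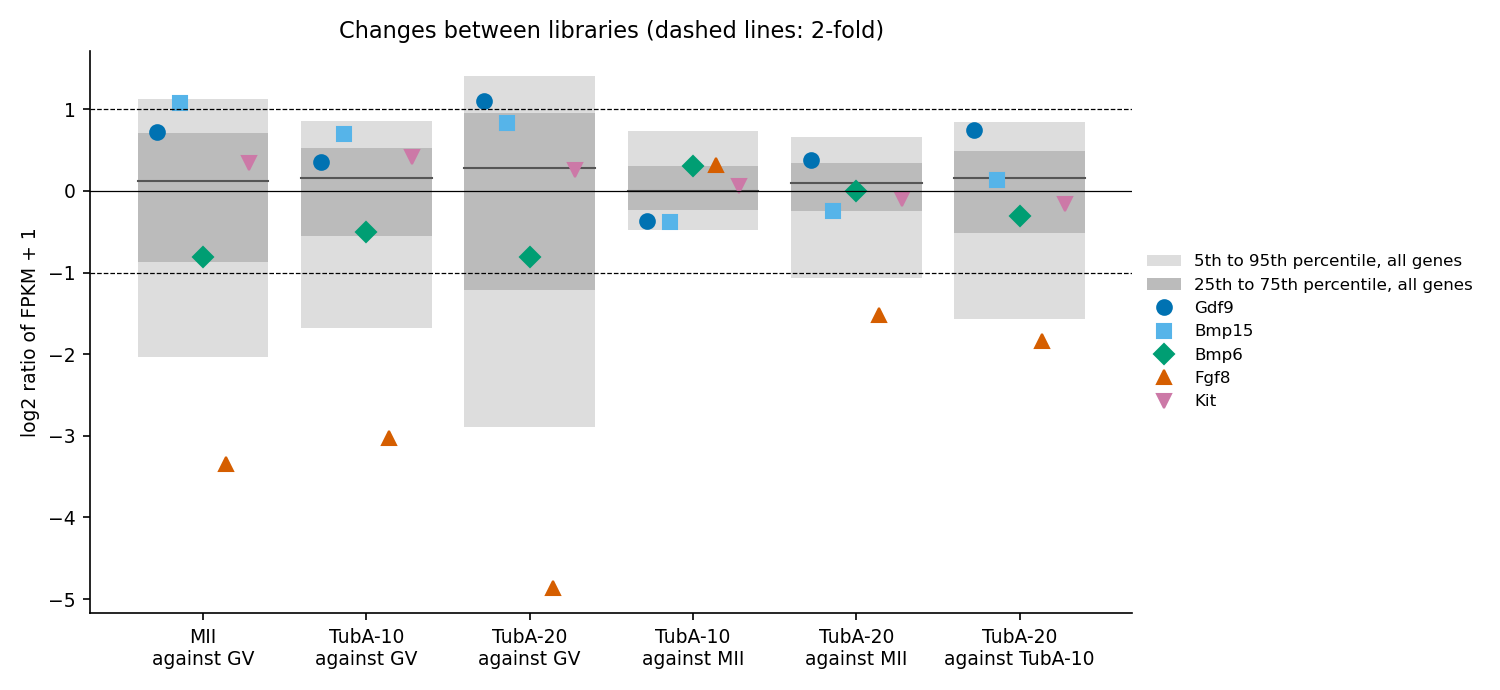
Log2 ratio of FPKM + 1 (y axis) of the 5 genes in 6 comparisons between libraries (x axis). Grey boxes give the 5th to 95th and 25th to 75th percentiles, and short lines the median, of all genes that reach 10 FPKM in either library; *Fgf8* is below the 5th percentile in 5 of 6 comparisons.

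Among 30 other ligands of the TGF-beta family, 23 stayed below 1 FPKM in all libraries and 4 reached 5 FPKM in one of them. In MII against GV 1 was higher and 1 lower past 2-fold, in TubA-20 against GV 2 were higher and 3 lower, and the median log2 change was 0 in both, as over all genes. That 0 comes from genes hardly detected, and over those with at least 1 FPKM in either library the median was -0.38 in MII and -0.15 in TubA-20. Of all genes 3.05% were higher and 8.34% lower in MII, and 7.61% and 11.7% in TubA-20, and these shares stand beside each list that follows. They include genes below 1 FPKM in both libraries, which cannot pass 2-fold with 1 FPKM added. Shares of genes with a mean of at least 5 FPKM, divided by the TTTTAT motif, were mostly larger. In TubA-20, 31.4% (with it) and 19.7% (without) were higher and 10.4% and 25.1% lower. In MII, 12.6% and 8.21% were higher and 8.75% and 18.5% lower. With the median change of expressed genes set to 0 the counts of the TGF-beta ligands were 0 higher and 1 lower in MII and 1 higher and 4 lower in TubA-20. *Tgfb2*, a secreted TGF-beta isoform, was the most abundant of the list, at 177 FPKM at the GV stage, 251 at MII, 304 with the low dose and 422 with the high dose, the last 1.25 above GV on the log2 scale. Its level was highest in TubA-20, as for *Gdf9*. *Bmp5*, a paralogue of *Bmp6*, was at 18.2, 39.1, 35.2 and 40.8 FPKM in the same order, with changes of 1.06 in MII and 1.12 in TubA-20. The *Bmp5* to *Bmp6* ratio was 0.983 at the GV stage, 3.85 at MII, 2.75 with the low dose and 4.04 with the high dose, so that both were about equal in GV and *Bmp5* was above *Bmp6* after culture. *Inha*, the inhibin alpha subunit and also a granulosa marker, was at 7.50 FPKM in GV and at 0.314, 0.310 and 0.239 in the cultured libraries. *Tgfb3*, another TGF-beta isoform, was at 10.1, 5.85, 9.61 and 3.35 FPKM, with a change of -1.36 in TubA-20 against GV. The third gene lower there, named after its values were seen, was *Gdf1*, at 1.09 FPKM in GV and below 1 in the other libraries.

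Of 14 receptors for BMPs, GDFs and activins, 1 was higher past 2-fold and 0 lower in MII against GV (3.05% and 8.34% of all genes), and 3 were higher and 0 lower in TubA-20 against GV (7.61% and 11.7%). With the median change of expressed genes set to 0, these counts were 0 higher and 1 lower in MII and 2 higher and 0 lower in TubA-20, and with equal *Gapdh* 3 were higher in each. The median log2 change was 0.32 and 0.34, beside 0 over all genes and 0.13 and 0.19 over those with at least 1 FPKM everywhere. Over the receptors with at least 1 FPKM in either library the medians were 0.39 in MII and 0.68 in TubA-20. *Bmpr1b*, a type I receptor, was the most abundant, at 45.4 FPKM (GV), 84.2 (MII), 88.0 (low dose) and 73.1 (high dose), within 2-fold throughout. *Bmpr2*, the type II receptor for BMP15 and GDF9, was at 6.18, 13.1, 10.7 and 15.7 FPKM, a change of 0.97 in MII and 1.22 in TubA-20. *Acvr1*, a type I receptor for BMP6, was at 2.47, 6.52, 4.68 and 8.17 FPKM, with changes of 1.12 and 1.40. *Acvr2b*, a type II activin receptor, was at 12.4, 15.9, 14.2 and 28.8 FPKM, with a change of 1.16 in TubA-20. For *Bmpr2*, *Acvr1* and *Acvr2b* the order of the libraries was TubA-20, MII, TubA-10 and GV, the order of *Gdf9*. These genes were named for passing 2-fold, so their place of TubA-20 above GV was set by that choice. Many genes of other lists had the same order, among them *Furin*, *Fgf9*, *Smad1*, *Fgfr2*, *Pik3r1*, *Pdpk1*, *Akt1*, *Fyn* and *Oosp1*. The order is therefore not particular to these receptors, and it was not counted over all genes.

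Of 16 Smads and Smad regulators, 0 passed 2-fold in MII against GV, and 1 was higher and 2 lower in TubA-20 against GV, with medians of 0.10 and 0.02. Over those with at least 1 FPKM in either library the medians were 0.21 and 0.28. With the median change of expressed genes set to 0 the medians of the whole list were -0.02 and -0.17. The background in TubA-20 was 7.61% higher and 11.7% lower, which these counts in 16 genes do not set apart. With equal upper quartiles 2 were higher and 1 lower in TubA-20, and with equal *Gapdh* 1 was higher and 0 lower in MII. *Smad1*, a BMP-activated Smad, went from 11.4 FPKM (GV) to 22.9 (MII), 18.2 (low dose) and 31.7 (high dose), a change of 1.40 at the high dose. *Id3*, a target gene of BMP signalling, was at 28.5, 23.2, 18.8 and 11.7 FPKM, a change of -1.21, and the other gene lower at that dose was its relative *Id1* (named after its values were seen), with 2.88 FPKM (GV) and 0.871 (high dose). *Ski*, a Smad corepressor, was the most abundant and kept between 50.8 and 56.6 FPKM. Of 16 proprotein convertases and secreted antagonists, 8 stayed below 1 FPKM. The 1 gene that reached 5 FPKM was *Furin*, a protease that cleaves TGF-beta family precursors, at 10.4, 21.8, 14.1 and 31.0 FPKM. Its change was 0.99 in MII and 1.48 in TubA-20 against GV. In this list 0 genes were higher and 1 lower in MII against GV, and 1 higher and 0 lower in TubA-20 against GV, with medians of 0. Among those reaching 1 FPKM in either library the medians were 0.07 in MII and 0.22 in TubA-20. Beside the counts stand 3.05% and 8.34% of all genes in MII and 7.61% and 11.7% in TubA-20. The counts turned with the scaling, to 1 higher and 0 lower in MII with equal *Gapdh*, and to 1 higher and 1 lower in TubA-20 with the median change of expressed genes set to 0. The gene lower in MII, named after its values were seen, was *Grem1*, a BMP antagonist, at 1.32 FPKM in GV and 0.123 in MII.

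Of 21 other FGF ligands, 15 stayed below 1 FPKM, and *Fgf9* was the 1 that reached 5 FPKM. *Fgf9*, which belongs to another FGF subfamily than *Fgf8*, went from 18.6 FPKM (GV) to 42.4 (MII), 38.3 (low dose) and 59.0 (high dose), changes of 1.15 and 1.61 in MII and TubA-20. *Fgf8* and *Fgf9* therefore had opposite orders, and the *Fgf8* to *Fgf9* ratio was 29.4 at the GV stage, 1.25 at MII, 1.73 with the low dose and 0.302 with the high dose. In this list 1 gene was higher and 0 lower in MII against GV, and 2 higher and 0 lower in TubA-20 against GV, with medians of 0. Beside *Fgf9* the second was *Fgf2* (named after its values were seen), with 1.18 FPKM (GV) and 3.71 (high dose). Over the FGF ligands with at least 1 FPKM in either library the medians were 0.30 in MII and 0.64 in TubA-20. The TubA-20 count was 1 with the median change of expressed genes set to 0, and 7.61% of all genes were higher in that comparison beside 3.05% in MII. Of 17 measured FGF receptors and response genes (of 18 listed, *Spry3* having no entry here), 0 were higher and 1 lower in MII, and 1 higher and 1 lower in TubA-20, with medians of 0.03 and 0. With at least 1 FPKM in either library the medians were 0.52 and 0.40. The shares of all genes were 3.05% and 8.34% in MII and 7.61% and 11.7% in TubA-20, and with the median change of expressed genes set to 0 no gene of this list was higher in TubA-20. *Spry1*, a feedback inhibitor whose transcription FGF signalling induces, went from 25.3 FPKM (GV) to 6.08 (MII), 7.29 (low dose) and 3.05 (high dose). Its changes were -1.90 in MII and -2.70 in TubA-20, and its order of libraries was that of *Fgf8*. *Bmp6*, *Tgfb3*, *Smurf1*, *Pik3cd* and *Oosp2* were among the genes that also had this order. It is therefore not particular to FGF genes, and it was not counted over all genes. In TubA-20 against GV 7 genes of this list were above 0 and 6 below. Among those above were *Spred1* (0.91) and *Etv1* (0.43), named after their values were seen. *Spry4*, an inhibitor related to *Spry1* and the most abundant of the list, kept between 53.9 and 61.4 FPKM. *Fgfr2*, a receptor tyrosine kinase, was at 14.5, 25.01, 21.3 and 31.5 FPKM, with a change of 1.07 in TubA-20.

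*Kitl*, the ligand of KIT and also one of the cumulus and granulosa markers, is named for that role. Its level was 0.952 FPKM (GV), 2.75 (MII), 2.03 (low dose) and 2.30 (high dose), and the *Kit* to *Kitl* ratio was 35.8, 15.9, 22.5 and 17.7. The GV ratio divides by a value below 1 FPKM, which rests on few fragments. Of 32 genes for Kit ligand and the signalling proteins downstream of KIT, 22 reached 5 FPKM. Past 2-fold, 4 were higher and 3 lower in MII against GV, and 8 higher and 5 lower in TubA-20 against GV, with medians of 0.52 and 0.45, beside 0 over all genes and 0.13 and 0.19 over those that reached 1 FPKM everywhere. The balance turned with the scaling, to 3 higher and 5 lower in each comparison with the median change of expressed genes set to 0, and to 10 higher and 1 lower in MII with equal *Gapdh*. Of all genes, 3.05% were higher and 8.34% lower in MII, and 7.61% and 11.7% in TubA-20, genes below 1 FPKM included. Among genes with a mean of at least 5 FPKM, 31.4% with TTTTAT and 19.7% without it were higher in TubA-20. The counts of this list are not set apart from those shares. The listed genes past 2-fold in MII were *Pik3r1*, *Pdpk1*, *Pik3r3* and *Rps6kb1* on the higher side and *Pik3cd*, *Pik3r2* and *Gab2* on the lower, the genes other than *Pik3r1*, *Pdpk1* and *Pik3cd* being named after their values were seen. In TubA-10 against GV 2 were higher and 4 lower, beside 0.742% and 5.6% of all genes. In each comparison among the cultured libraries 0 of the 32 passed 2-fold, where the shares of all genes lay between 0.128% (lower in TubA-10 against MII) and 5.52% (lower in TubA-20 against TubA-10). *Pik3r1*, a regulatory subunit of phosphoinositide 3-kinase, was at 36.4, 97.5, 59.8 and 102 FPKM in the order GV, MII, low dose, high dose. *Pik3cd*, a catalytic subunit of that kinase, was at 78.4, 23.5, 26.7 and 20.6 FPKM, and in TubA-20 against GV the changes were 1.46 for *Pik3r1* and -1.88 for *Pik3cd*. Regulatory and catalytic subunits did not divide by direction, since the regulatory *Pik3r2* was at -1.72 and the catalytic *Pik3ca* at 0.50 in the same comparison (both named after their values were seen). *Pdpk1* and *Akt1*, kinases that act after it, were at 23.8, 57.4, 47.9 and 61.8 FPKM and at 21.6, 39.0, 33.2 and 58.3 FPKM, with changes of 1.34 and 1.39 in TubA-20. *Fyn*, a Src family kinase and the most abundant of the list, was at 81.0, 145, 115 and 166 FPKM. Those named here were mostly chosen for passing 2-fold, and other genes of the list stayed nearer to GV, such as *Tsc2* with changes of -0.07 in MII and -0.13 in TubA-20 (named after its values were seen).

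**Figure D4:**
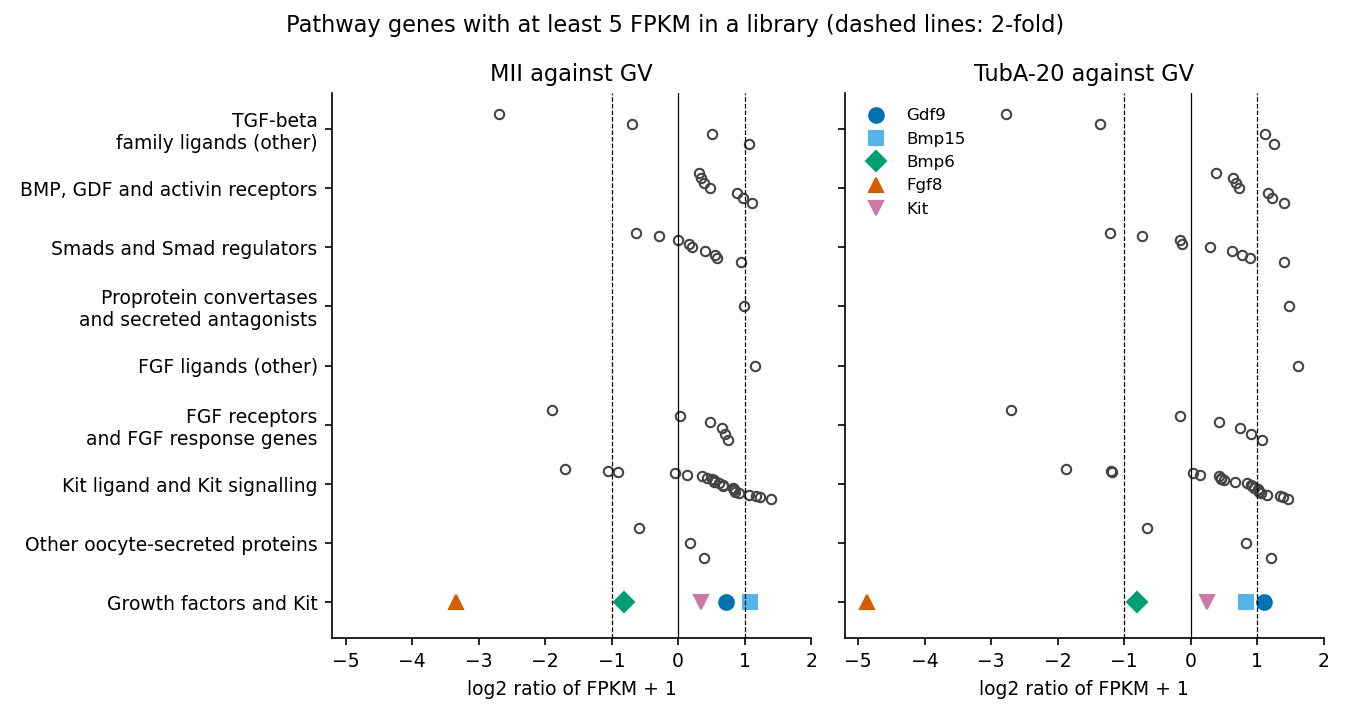
Log2 ratio of FPKM + 1 (x axis) in MII against GV (left) and TubA-20 against GV (right) for each listed gene that reaches 5 FPKM in a library (open circles), by list (y axis), with the 5 genes in colour. Both panels share the GV library; *Fgf8*, at -3.34 and -4.86, is further from 0 than every circle.

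*Oosp1*, *Oosp2* and *Oosp3* encode other proteins secreted by the oocyte. In MII against GV 0 of the 3 passed 2-fold, and in TubA-20 against GV 1 was higher and 0 lower, with medians of 0.18 and 0.83. *Oosp1* went from 2700 FPKM (GV) to 3521 (MII), 3198 (low dose) and 6213 (high dose), a change of 1.20 at the high dose, and it was above *Gdf9* in each library. *Oosp2* was below GV in every cultured library, at 1120 FPKM (GV), 745 (MII), 899 (low dose) and 713 (high dose), and *Oosp3* was at 1687, 1910, 1585 and 3002 FPKM in that order (both named after their values were seen). Over the 8 lists, 149 of 150 genes were measured. In MII against GV 7 were higher and 6 lower past 2-fold, beside 3.05% and 8.34% of all genes, and in TubA-20 against GV 19 were higher and 11 lower, beside 7.61% and 11.7%. With the median change of expressed genes set to 0 the counts were 4 and 9 in MII and 10 and 13 in TubA-20, so the excess of higher genes did not hold, and with equal *Gapdh* they were 17 and 3 in MII and 19 and 8 in TubA-20.

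The genes whose pattern over the 4 libraries was most like that of a member were taken by the smallest distance between centred log2 values, among 6368 genes that reached 10 FPKM in a library. For *Gdf9* they were *Cdc34*, a ubiquitin-conjugating enzyme, *Ccnyl1*, a cyclin, and *Rfpl4*, an oocyte RING finger gene, at distances of 0.03, 0.04 and 0.04. *Rfpl4* for example was at 882, 1471, 1149 and 1979 FPKM in the same order of libraries. For *Bmp15* they were *Btk*, *Nav2* and *Spdl1*, the last of which encodes a spindle protein, at 0.05, 0.05 and 0.07. For *Bmp6* they were *Myl4*, *Ints4* and *Usp5* at 0.02, 0.04 and 0.05, and for *Kit* they were *Trappc3l*, *Ndufa3* and *Rfx5* at 0.03, 0.05 and 0.06. For *Fgf8* they were *Fcf1*, a ribosomal RNA processing gene, *Ndufb7*, of respiratory complex I, and *Ppil3*, at larger distances of 0.14, 0.22 and 0.27. *Fcf1* was at 865, 84.4, 116 and 27.8 FPKM, close to the course of *Fgf8* at a higher level. These rest on 4 points each, and Pearson's correlation named other genes throughout.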

How the data were processed

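The authors deposited 1 table of FPKM values for 21959 entries and 4 libraries, made with STAR 2.5.0, Cufflinks and Cuffdiff 2.2.1 (submitters' processing notes) on mm10, with a strand-specific library type according to the methods. FPKM values are already divided by transcript length and mapped fragments; read counts are not used here. The methods name a UCSC gene model and a PicoPure extraction, whereas the entries carry Ensembl identifiers and the labels name TRIzol. Symbols, coordinates and transcript models came from GENCODE on GRCm38 by identifier (165 entries unmatched), and entries sharing a symbol were summed, which left 21957 genes.

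Log2 ratios of FPKM + 1 were computed for 6 comparisons with no filter and a 2-fold threshold. The members, lists and alternatives were chosen with earlier results of these data known. Beside the members, the most abundant gene of each of 8 lists was named, with up to 4 genes of at least 5 FPKM past 2-fold in MII or TubA-20 against GV with the largest changes. Alternatives were 2 pseudocounts, 2 filters, 4 scalings and 2 thresholds. Relative depth was estimated from FPKM values between 0.001 and 0.15. The scripts (Python 3.11.15, numpy 2.4.6, pandas 2.3.3, matplotlib 3.10.9) were tested on simulated data.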

Additional observations from a re-analysis of the deposited data

Results flagged for a closer look

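For *Gdf9*, *Bmp6*, *Fgf8* and *Kit* the changes of TubA-10 and TubA-20 from MII had opposite signs, and for *Bmp6* and *Kit* at least one of them was near 0. *Gdf9* had log2 changes of -0.36 (low dose) and 0.38 (high dose) relative to MII. *Bmp6* had 0.31 and -0.0043, and the latter was 0.081 with equal upper quartiles. *Fgf8* had 0.32 and -1.52, the only one of these 8 values past 2-fold. *Kit* had 0.063 and -0.097. The difference between the doses was not tested, since each dose is 1 library, and both changes are taken against the same MII library.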

How the results depend on the processing

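In 235 of 240 combinations of a member's change with an alternative, the direction and the side of 2-fold were those reported, and *Fgf8* kept both in all comparisons. These include the 2 filters, which could not move a member's change because the 5 genes lay above them in every library. Only the scalings and pseudocounts could move it. With the median change of expressed genes set to 0, *Bmp15* in MII and *Gdf9* in TubA-20 against GV came under 2-fold (0.95 and 0.92) and *Bmp6* in TubA-20 passed it (-1.002), so that 1 member instead of 2 was past it in MII against GV. The direction reversed for *Bmp6* in TubA-20 against MII (0.081, equal upper quartiles) and for *Bmp15* in TubA-20 against TubA-10 (-0.0625, equal *Gapdh*). At 1.5-fold, 4 members were past the threshold in MII and in TubA-20 against GV, 2 in TubA-10 against GV and 2 in TubA-20 against TubA-10. At 3-fold, 1 was past it in MII and in TubA-20 against GV and 0 in TubA-20 against MII. Over the 8 lists, the 13 genes past 2-fold in MII against GV became 31 and 46 with pseudocounts of 0.1 and 0.01, 20 with equal *Gapdh*, 37 at 1.5-fold and 3 at 3-fold. The 30 in TubA-20 against GV became 56 and 64 with the pseudocounts, 54 at 1.5-fold and 5 at 3-fold. Their division into 19 higher and 11 lower became 10 and 13 with the median change set to 0 and 24 and 9 with equal upper quartiles, and the 7 and 6 in MII against GV became 4 and 9 with the former and 17 and 3 with equal *Gapdh*. Other causes than the construction of an alternative were not tested. Of the 15 genes named by distance, 0 were named by Pearson's correlation. No paired analysis was possible because each condition has 1 library, and none could be left out for the same reason. Values below 1 FPKM rest on few fragments, and the 5 genes lay above 10 FPKM in every library.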

Other observations

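The genes with a mean of at least 5 FPKM over the 4 libraries and an annotated 3′ end were divided by the presence of TTTTAT in the last 100 bases, the motif that *Gdf9* and *Bmp6* hold. In MII against GV the median log2 change was 0.52 over 1120 genes with it and 0.13 over 5557 genes without it. In TubA-20 against GV it was 0.75 and 0.21, and in TubA-10 against GV 0.37 and 0.17. In TubA-10 against MII the order was the reverse, with -0.12 for genes with the motif and 0.02 for those without. It was not reversed in TubA-20 against MII, with 0.18 and 0.02, or in TubA-20 against TubA-10, with 0.35 and 0.05. In TubA-10 against GV 1.52% of genes with the motif and 1.85% of those without were higher past 2-fold, and 5.36% and 11.9% were lower. Past 2-fold in TubA-20 against GV, 31.4% of genes with the motif were higher and 10.4% lower, and of those without it 19.7% were higher and 25.1% lower. *Gdf9* lies on the higher side (1.11 in TubA-20) and *Bmp6* on the lower side (-0.81), so the 2 members that hold the motif had opposite directions. The comparisons against GV share that library, genes are not replicates, and no test was made.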
